A study of Homo sapiens with 12 samples.

Results

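The E2F transcription factors and the retinoblastoma (pocket) proteins were followed across 4 groups of cultured thyroid cancer cells, as the rows of the gene table named E2F1, E2F2, E2F3, E2F4, E2F5, E2F7, E2F8, RB1, RBL1 and RBL2. These are 10 of the 58735 annotated genes, and all 10 were among the 16218 genes with enough counts to be tested. Polyadenylated RNA was sequenced from 2 human lines labelled anaplastic thyroid carcinoma, an undifferentiated and aggressive thyroid cancer. KHM-5M, labelled BRAF V600E (an activating change of the kinase BRAF) and grown in RPMI-1640, received 1 µM GDC-0994 (3 libraries) or DMSO (3 libraries) for 24 hours. TTA-1, labelled BRAF wild type and grown in DMEM, received the same dose for the same time (3 libraries) or DMSO (3 libraries). GDC-0994, also called ravoxertinib, inhibits ERK1 and ERK2, the last kinases of the RAS, RAF, MEK and ERK cascade, and DMSO is its solvent. Both media held fetal bovine serum. Each genotype stands for 1 line in its own medium, so genotype, line and medium cannot be told apart.

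E2F proteins bind DNA upstream of the genes for DNA replication and the cell cycle, mostly as pairs with a DP protein (TFDP1 or TFDP2). E2F1, E2F2 and E2F3 are the activators, E2F4 and E2F5 act mainly as repressors together with pocket proteins, and the atypical E2F7 and E2F8 repress without a DP partner or a pocket protein. The pocket proteins RB1 (pRB), RBL1 (p107) and RBL2 (p130) hold E2Fs inactive until cyclin-dependent kinases phosphorylate them; RBL2 with E2F4 is the form known from resting cells, where it is part of the DREAM complex. ERK signalling is known to induce cyclin D1, a partner of the kinases that act on pocket proteins.

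The libraries held 14952970 to 18389915 counts in genes. Levels below are FPKM (fragments scaled to gene length and library size), which allows genes of different length to be set side by side; values after ± are the SD over 3 libraries for a level and the standard error for a log2 fold change. Of the thyroid follicular markers, PAX8 was at 120.2 ± 4.08 CPM (counts scaled to library size) in KHM-5M GDC-0994, 210.2 ± 8.69 in KHM-5M DMSO, 3.65 ± 0.626 in TTA-1 GDC-0994 and 3.59 ± 0.552 in TTA-1 DMSO. FOXE1 was at 1.96 ± 0.784 CPM in KHM-5M GDC-0994, 2.46 ± 0.372 in KHM-5M DMSO, 0.336 ± 0.112 in TTA-1 GDC-0994 and 0.238 ± 0.189 in TTA-1 DMSO. TG, TSHR, SLC5A5 and NKX2-1 had at most 8 counts in any library. The 10 markers of leukocytes, endothelium, melanocytes and C cells summed to 3.38 to 4.98 CPM per library in KHM-5M GDC-0994, 2.6 to 2.92 in KHM-5M DMSO, 1.66 to 2.61 in TTA-1 GDC-0994 and 0.723 to 2.93 in TTA-1 DMSO, with PTPRC, CD3E, CALCA and CHGA at most at 3 counts. Of the 3 that could be tested, VWF was called higher in KHM-5M GDC-0994 than in KHM-5M DMSO (31 to 64 against 18 to 21 counts), PECAM1 was called lower (0 against 1 to 7 counts) and PMEL was not called; their part in the results was not tested. In TTA-1 DMSO, the log2 ratio of a library to the others of its group had a correlation with gene GC content, across genes, of 0.72 in replicate 1 and -0.69 in replicate 2; in KHM-5M GDC-0994 it was 0.59 in replicate 1 and -0.55 in replicate 3.

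In KHM-5M, 7 of the 10 transcripts fell with GDC-0994, 1 rose and 2 were not called, where 49.8% of all genes tested were called (24.6% higher and 25.1% lower). A gene was called at an adjusted p below 0.05 in edgeR's quasi-likelihood test with Benjamini-Hochberg adjustment over all genes tested. E2F1, E2F2, E2F7 and E2F8 fell by 2.78 to 3.42 on the log2 scale, RBL1 by 1.83, and E2F3 and E2F4 by less than 1. RBL2 alone rose, and E2F5 and RB1 were not called. In scaled CPM, treated and control libraries did not overlap for 9 members, 8 with the treated ones lower and 1 with them higher, where the same held for 30.6% and 30.4% of all genes. The median log2 fold change was -1.26 over the 10 genes and 0.02 over all genes tested. In these bulk libraries, fewer cells carrying a transcript and less of it per cell cannot be told apart.

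**Figure D1:**
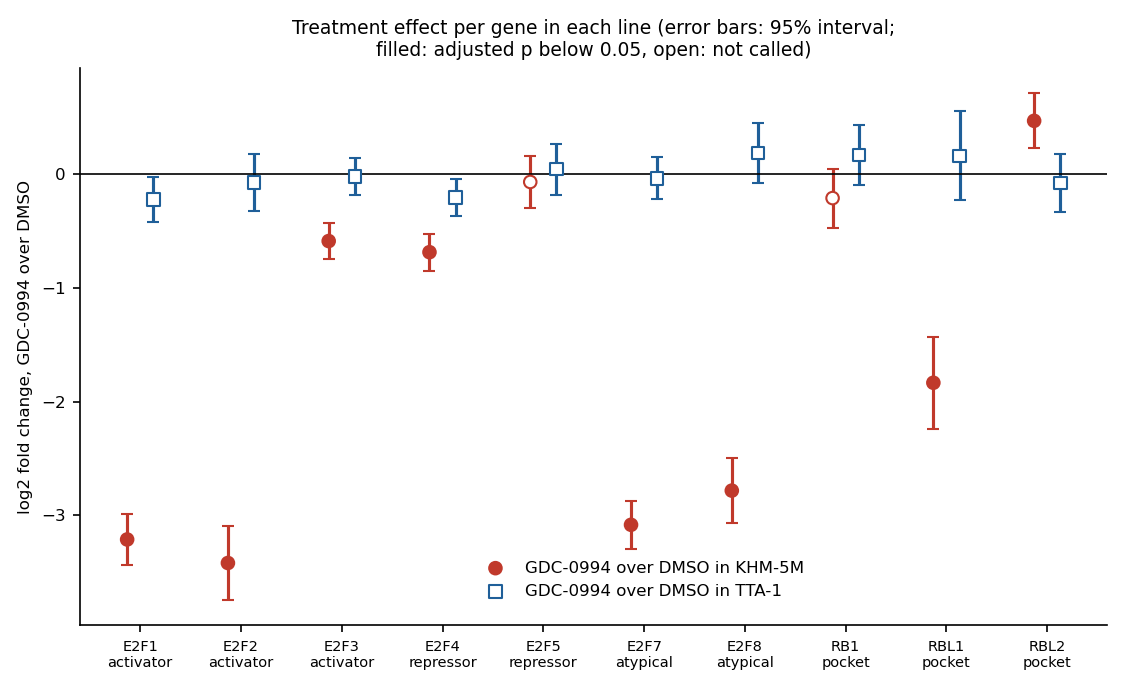
Log2 fold change of GDC-0994 over DMSO (y axis) for each of the 10 genes (x axis, with the role of each) in KHM-5M and TTA-1. Error bars are 95% intervals and filled points were called at an adjusted p below 0.05. E2F1, E2F2, E2F7 and E2F8 lie at -2.78 to -3.42 in KHM-5M, while all 10 genes lie between -0.22 and 0.19 in TTA-1 with no filled point.

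The genes that fell in KHM-5M included activators, atypical repressors and a pocket protein, so their promoters were set side by side. RefSeq windows on GRCh38.p14, from 250 bases before to 50 bases after a gene's start, were found for 8 of the 10 members, and the window of RB1 lay 172724 bases inside the gene and was not used. The other 7 were searched on both strands for 4 words of the E2F consensus, TTTCCCGC, TTTCGCGC, TTTGCCGC and TTTGGCGC. Of these 7 windows, 4 (57.1%) held a word, compared with 554 of 10469 (5.29%) of protein-coding genes tested and 1164 of 35116 (3.31%) of all windows of this length. The 4 were E2F1, E2F2, E2F3 and RBL1, and no word was in the windows of E2F4, E2F7 and RBL2. Shown are those 4 and E2F7, as an example of a window without a word. Capitals mark the E2F words, and each line reads 5′ to 3′ on the strand of the gene.
E2F1, chr20:33686336-33686635, minus strand: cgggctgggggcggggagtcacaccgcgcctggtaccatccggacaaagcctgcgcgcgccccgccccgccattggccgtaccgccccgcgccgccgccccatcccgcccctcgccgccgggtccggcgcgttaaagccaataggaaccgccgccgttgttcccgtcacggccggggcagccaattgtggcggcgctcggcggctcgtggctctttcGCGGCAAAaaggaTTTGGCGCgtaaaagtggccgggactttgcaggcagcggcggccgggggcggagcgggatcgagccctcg
E2F2, chr1:23531184-23531483, minus strand: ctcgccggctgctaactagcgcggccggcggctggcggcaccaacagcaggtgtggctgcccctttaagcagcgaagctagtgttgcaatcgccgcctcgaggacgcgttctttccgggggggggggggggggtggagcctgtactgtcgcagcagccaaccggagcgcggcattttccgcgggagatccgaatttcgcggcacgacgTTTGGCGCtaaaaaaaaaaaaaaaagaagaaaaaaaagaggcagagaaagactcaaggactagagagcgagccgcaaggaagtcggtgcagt
E2F3, chr6:20401629-20401928, plus strand: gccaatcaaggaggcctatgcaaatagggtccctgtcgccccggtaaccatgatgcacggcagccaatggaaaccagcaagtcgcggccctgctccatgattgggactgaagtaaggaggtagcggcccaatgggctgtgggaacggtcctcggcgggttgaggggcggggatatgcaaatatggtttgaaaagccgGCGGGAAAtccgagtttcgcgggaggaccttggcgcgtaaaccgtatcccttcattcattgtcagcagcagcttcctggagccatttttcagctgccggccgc
RBL1, chr20:37095948-37096247, minus strand: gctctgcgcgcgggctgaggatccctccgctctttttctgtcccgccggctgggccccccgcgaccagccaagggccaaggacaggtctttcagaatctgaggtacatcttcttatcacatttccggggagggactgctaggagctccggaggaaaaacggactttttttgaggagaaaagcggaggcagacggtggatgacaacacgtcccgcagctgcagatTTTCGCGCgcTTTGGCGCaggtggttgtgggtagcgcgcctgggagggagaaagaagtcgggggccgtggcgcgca
E2F7, chr12:77065520-77065819, minus strand: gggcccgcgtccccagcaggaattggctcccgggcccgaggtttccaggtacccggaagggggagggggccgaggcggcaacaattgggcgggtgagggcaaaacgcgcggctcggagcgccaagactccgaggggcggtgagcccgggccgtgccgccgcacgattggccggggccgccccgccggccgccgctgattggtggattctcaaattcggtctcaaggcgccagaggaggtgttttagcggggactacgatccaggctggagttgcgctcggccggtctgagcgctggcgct
In E2F1 the words began 33 and 20 bases before the start, and in RBL1 26 and 16 bases before it. In E2F2 the word began 42 bases and in E2F3 53 bases before the start. On the log2 scale, the genes with a word changed by -3.21 (E2F1), -3.42 (E2F2), -0.59 (E2F3) and -1.83 (RBL1) in KHM-5M. Those without one changed by -0.68 (E2F4), -3.08 (E2F7) and 0.47 (RBL2). The RefSeq start used for RBL2 lay 494 bases inside the annotated gene, so its whole window lay inside the gene. A link between the words and these changes was not tested. A match is a description of these letters and was not tested as a binding site.

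Among the activators, E2F1 (ENSG00000101412, GRCh38 chromosome 20, 33675683 to 33686404, minus strand), which drives entry into DNA synthesis, had 5.00, 4.40 and 3.61 FPKM in KHM-5M GDC-0994, against 41.2, 38.3 and 39.0 FPKM in KHM-5M DMSO. The highest treated library was far below the lowest control. The change was -3.21 ± 0.11 log2, 9.27-fold lower (adjusted p = 3.95e-13 by edgeR's quasi-likelihood test). In TTA-1, E2F1 had 19.7, 18.6 and 19.2 FPKM with GDC-0994, against 24.6, 20.9 and 21.5 FPKM with DMSO. These groups did not overlap either, which held for 9.05% of all genes in this direction, but the change of -0.22 log2 (95% interval -0.42 to -0.02) was not called (adjusted p = 0.24).

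E2F2 (ENSG00000007968, chromosome 1, 23506430 to 23531220, minus strand), the least abundant activator, had 0.372, 0.451 and 0.302 FPKM in KHM-5M GDC-0994, against 3.73, 4.13 and 4.03 FPKM in KHM-5M DMSO. It fell 10.7-fold (-3.42 ± 0.15 log2, adjusted p = 1.3e-11 by edgeR), to 27 to 44 counts per library. Whether E2F2 or E2F1 fell further depended on the scale: limma on log2(FPKM + 1), which understates changes of low genes, gave -1.85 for E2F2 and -2.93 for E2F1. In TTA-1 its libraries overlapped, at 4.17, 3.60 and 3.64 FPKM with GDC-0994 and 4.47, 3.55 and 4.01 FPKM with DMSO (-0.07 log2, 95% interval -0.33 to 0.18).

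E2F3 (ENSG00000112242, chromosome 6, 20401906 to 20493715, plus strand) is transcribed as a long and a short form from separate starts, which gene counts do not tell apart. It had 9.09, 8.04 and 8.44 FPKM in KHM-5M GDC-0994, against 12.5, 12.9 and 12.2 FPKM in KHM-5M DMSO. The groups did not overlap, yet the fall of 0.59 ± 0.08 on the log2 scale, 1.5-fold, was small beside those of E2F1 and E2F2 (adjusted p = 7.54e-06 by edgeR). TTA-1 had 13.6, 12.7 and 13.9 FPKM with GDC-0994 and 12.96, 14.4 and 13.4 FPKM with DMSO, which overlapped (-0.02 log2, 95% interval -0.18 to 0.14).

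**Figure D2:**
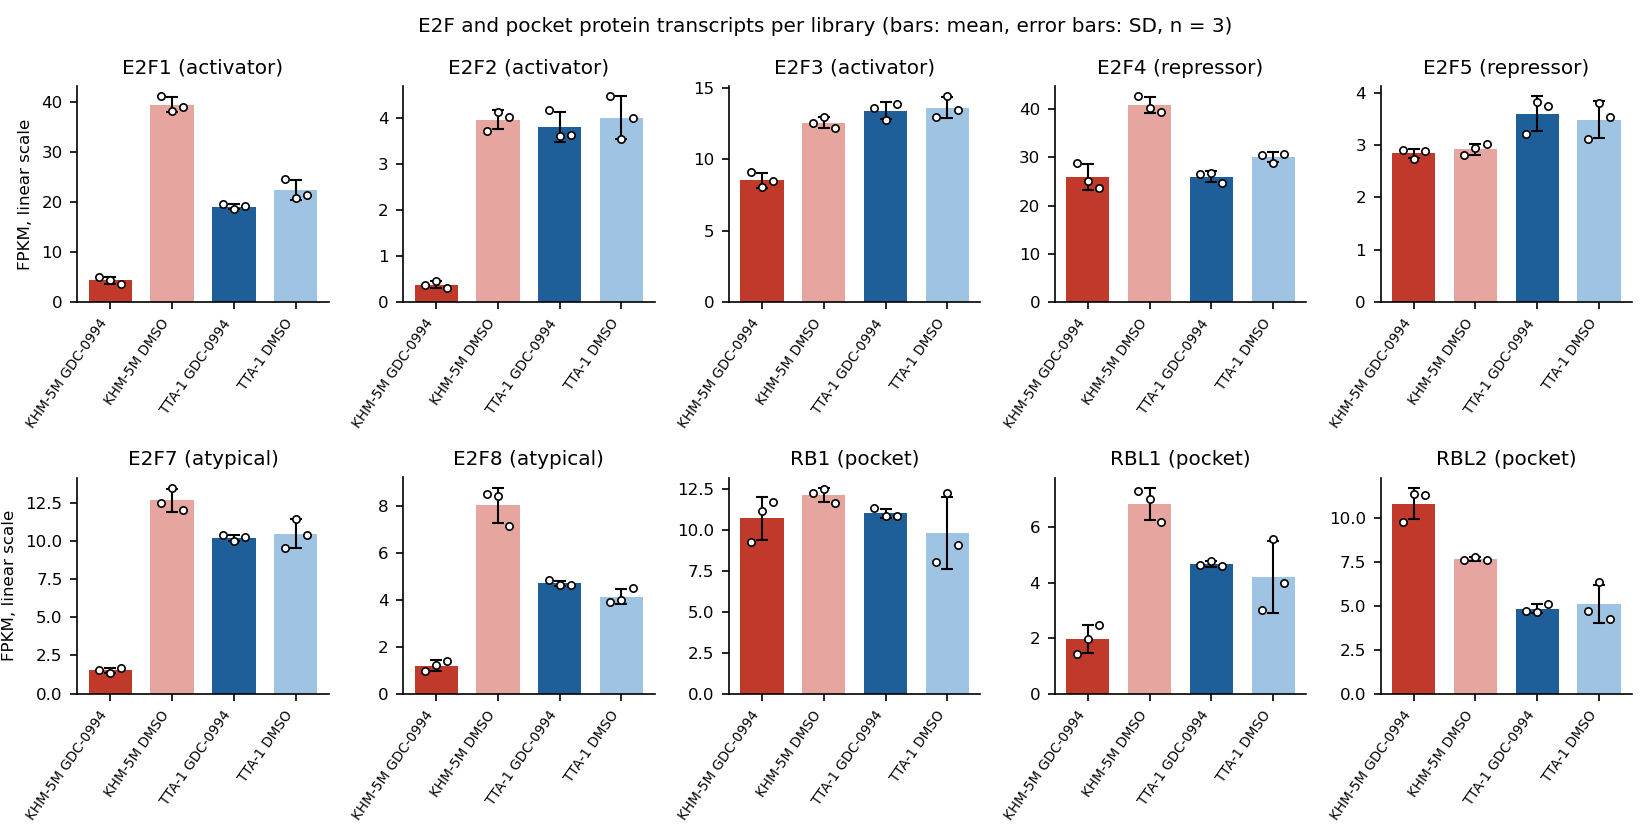
FPKM (y axis, linear, from 0) of each of the 10 genes in the 4 groups (x axis). Points are libraries, bars are means and error bars the SD over 3 libraries. E2F1, E2F2, E2F7, E2F8 and RBL1 are lowest in KHM-5M GDC-0994 and RBL2 is highest there, while the 4 group means lie between 2.85 and 3.60 FPKM for E2F5 and between 9.82 and 12.2 FPKM for RB1.

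Of the repressors that act with pocket proteins, E2F4 (ENSG00000205250, chromosome 16, 67192169 to 67198918, plus strand) was the most abundant E2F by its mean in each group. It had 28.8, 25.2 and 23.7 FPKM in KHM-5M GDC-0994, against 42.7, 40.3 and 39.5 FPKM in KHM-5M DMSO. Every treated library was below every control, with a fall of 0.68 ± 0.08 on the log2 scale, 1.61-fold (adjusted p = 1.38e-06 by edgeR). Its GC content, 59.3% of the transcript, is the second highest of the 10 genes, and its 3 treated libraries run in the order of their GC trend. Those of E2F1, with the highest GC content (62.5%), run the same way, and those of E2F8, RB1 and RBL1 the reverse way. With the trend on GC and length removed from each library the fall of E2F4 was 0.50. The cause of these orders was not tested. TTA-1 had 26.6, 26.7 and 24.8 FPKM with GDC-0994, against 30.5, 28.8 and 30.8 FPKM with DMSO, again without overlap but not called (-0.20 log2, 95% interval -0.37 to -0.04, adjusted p = 0.179).

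E2F5 (ENSG00000133740, chromosome 8, 85177225 to 85217158, plus strand), the other repressor of this kind, did not pass the test in either line. It had 2.91, 2.74 and 2.88 FPKM in KHM-5M GDC-0994 and 2.81, 2.94 and 3.02 FPKM in KHM-5M DMSO, with a difference of -0.07 log2 (95% interval -0.29 to 0.16). In TTA-1 it had 3.21, 3.83 and 3.76 FPKM with GDC-0994 and 3.12, 3.82 and 3.53 FPKM with DMSO (0.05 log2, 95% interval -0.18 to 0.27). The groups overlapped in both lines. The libraries were not made to keep the strand, and 16.3% of the exon bases of E2F5 overlap those of C8orf59 on the opposite strand (221 to 603 counts per library), so reads there cannot be told apart.

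Both atypical repressors fell about as far as E2F1. E2F7 (ENSG00000165891, chromosome 12, 77021247 to 77065580, minus strand), itself known as an E2F target, had 1.56, 1.36 and 1.66 FPKM in KHM-5M GDC-0994, against 12.5, 13.5 and 12.1 FPKM in KHM-5M DMSO. The groups were far apart, an 8.47-fold fall (-3.08 ± 0.10 log2, adjusted p = 3.45e-13 by edgeR). In TTA-1 it had 10.4, 10.0 and 10.3 FPKM with GDC-0994 and 9.57, 11.5 and 10.4 FPKM with DMSO, which overlapped (-0.04 log2, 95% interval -0.22 to 0.15).

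E2F8 (ENSG00000129173, chromosome 11, 19224063 to 19241620, minus strand), which pairs with E2F7, had 0.942, 1.23 and 1.40 FPKM in KHM-5M GDC-0994, against 8.48, 8.41 and 7.14 FPKM in KHM-5M DMSO. It fell 6.88-fold with no overlap (-2.78 ± 0.14 log2, adjusted p = 4.33e-11 by edgeR). TTA-1 GDC-0994 libraries had 4.82, 4.64 and 4.62 FPKM, against 3.90, 3.98 and 4.49 FPKM in TTA-1 DMSO. These did not overlap, which held for 9.75% of all genes in this direction, but the difference was not called (0.19 log2, 95% interval -0.07 to 0.45, adjusted p = 0.466).

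The pocket protein genes moved in different directions in KHM-5M. RB1 (ENSG00000139687, chromosome 13, 48303726 to 48599436, plus strand), the retinoblastoma tumour suppressor, had 9.25, 11.2 and 11.7 FPKM in KHM-5M GDC-0994 and 12.3, 12.5 and 11.7 FPKM in KHM-5M DMSO. The groups met at the edge in FPKM and did not overlap in scaled CPM, and the difference of -0.21 log2 (95% interval -0.47 to 0.05) was not called (adjusted p = 0.174). It was called as a fall, at -0.22 log2 (adjusted p = 0.0499 by edgeR), in a fit of the KHM-5M libraries alone and, at -0.26 log2 (adjusted p = 0.000829 by edgeR), with the GC and length trend removed.

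RBL1 (ENSG00000080839, chromosome 20, 36996349 to 37095995, minus strand), which encodes p107 and is known as an E2F target, had 1.45, 1.98 and 2.47 FPKM in KHM-5M GDC-0994, against 7.32, 7.04 and 6.21 FPKM in KHM-5M DMSO. It fell 3.56-fold without overlap (-1.83 ± 0.19 log2, adjusted p = 5.93e-07 by edgeR), with the widest relative spread of the 10 genes in the treated group (SD 26.1% of the mean) and -1.86 log2 with the GC and length trend removed. RBL2 (ENSG00000103479, chromosome 16, 53433977 to 53491649, plus strand), which encodes p130, had 9.78, 11.4 and 11.3 FPKM in KHM-5M GDC-0994, against 7.60, 7.78 and 7.59 FPKM in KHM-5M DMSO. Every treated library was above every control, a 1.39-fold rise (0.47 ± 0.11 log2, adjusted p = 0.00253 by edgeR). Of its exon bases, 8.33% overlap AKTIP on the opposite strand (105 to 255 counts per library).

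In TTA-1 the 3 pocket protein genes overlapped between treatments, and the spread was wider in the DMSO group. RB1 had 11.3, 10.9 and 10.9 FPKM with GDC-0994 and 8.07, 12.3 and 9.09 FPKM with DMSO. RBL1 had 4.64, 4.79 and 4.62 FPKM with GDC-0994 and 3.01, 5.59 and 3.98 FPKM with DMSO. RBL2 had 4.73, 4.64 and 5.13 FPKM with GDC-0994 and 4.70, 6.35 and 4.25 FPKM with DMSO. DMSO replicate 2, highest for all 3 genes, is the library with the GC trend of -0.69, and these genes have a GC content of 39.3%, 41.2% and 41.6%. The cause of the wider spread was not tested. The differences were 0.17 log2 for RB1 (95% interval -0.09 to 0.44), 0.16 for RBL1 (-0.23 to 0.56) and -0.07 for RBL2 (-0.33 to 0.18).

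Thus 0 of the 10 genes were called in TTA-1 by edgeR, where 3.43% of all genes tested were called (1.18% higher and 2.24% lower). At an unadjusted p under 0.05 there were 2, E2F1 and E2F4, where 2818 of all 16218 genes tested were. DESeq2's Wald test, limma on log2(FPKM + 1) and the fit with the trend removed each called 0 members. Without TTA-1 DMSO replicate 2, 3 members were called by edgeR, E2F1 at -0.29 log2 (adjusted p = 0.0448), E2F4 at -0.26 (0.0332) and RB1 at 0.34 (0.0193), and the share of all genes called was then 15.7%. With the trend removed and all libraries kept, these 3 stood at 0.00, -0.06 and 0.08 log2. Over all genes, the called ones split into 192 higher and 364 lower, and into 565 higher and 446 lower with the trend removed.

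The effect of GDC-0994 was compared between the lines by the difference of the log2 fold changes, KHM-5M minus TTA-1. It was called for 8 of the 10 genes, 7 lower and 1 higher, where 27.9% of all genes tested were called (12.3% higher and 15.6% lower). E2F2 differed by -3.35 log2 (adjusted p = 1.39e-09 by edgeR), E2F7 by -3.05, E2F1 by -2.99 and E2F8 by -2.97; their order depended on the scale, since limma on log2(FPKM + 1) gave -1.79 for E2F2 and -2.72 for E2F1. RBL1 differed by -1.997 and, with smaller values, E2F3 by -0.57 and E2F4 by -0.48. RBL2 differed by 0.55 the other way (adjusted p = 0.0205 by edgeR), which was not called without KHM-5M GDC-0994 replicate 2 (0.51, adjusted p = 0.0553). The difference was not called for E2F5 (-0.11, adjusted p = 0.637) or RB1 (-0.38, adjusted p = 0.122), and RB1 was called without TTA-1 DMSO replicate 2 (-0.52, adjusted p = 0.00297) and with the trend removed (-0.34, adjusted p = 0.00299).

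Activators were then set against repressors by shares and ratios within each library, which do not depend on the scaling between libraries. A library's GC trend can still move them, and they were not computed with this trend removed. The GC content is 62.5% for E2F1, 56.7% for E2F2 and 59.3% for E2F4. It is 44.5% for E2F3, 40% for E2F5, 44.6% for E2F7 and 46.4% for E2F8. The summed FPKM of the 7 E2Fs, which does depend on library scaling, was 44.7 ± 3.52 in KHM-5M GDC-0994, against 120.5 ± 3.52 in KHM-5M DMSO. Activators made up 29.6 ± 0.158% of this sum in KHM-5M GDC-0994, against 46.5 ± 0.652% in KHM-5M DMSO. In TTA-1 the activator share was 44.9 ± 1.18% with GDC-0994 and 45.4 ± 1.61% with DMSO. These shares are descriptions of levels whose members were tested above, so no p is given.

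E2F4 and E2F5 together held 64.3% of the E2F sum in KHM-5M GDC-0994, against 36.3% in KHM-5M DMSO, and 36.6% and 38.0% in TTA-1 with GDC-0994 and with DMSO. The log2 ratio of activators to E2F4 and E2F5 was -1.12 in KHM-5M GDC-0994, the only group with a negative ratio, against 0.36 in KHM-5M DMSO; it was 0.29 in TTA-1 GDC-0994 and 0.25 in TTA-1 DMSO. The balance with the atypical repressors went the other way. E2F7 and E2F8 held 6.13% in KHM-5M GDC-0994 and 17.2% in KHM-5M DMSO, so the log2 ratio of activators to E2F7 and E2F8 was 2.29 in KHM-5M GDC-0994, against 1.44 in KHM-5M DMSO. In TTA-1 this ratio was 1.28 with GDC-0994 and 1.45 with DMSO.

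The make-up of the activators also differed. E2F3 made up 64.5% of activator FPKM in KHM-5M GDC-0994, against 22.4% in KHM-5M DMSO, while E2F1 made up 32.6% and 70.5% in the same groups. In TTA-1, E2F1 was the larger part both with GDC-0994 (52.7%) and with DMSO (55.9%). Among pocket proteins in KHM-5M, RBL1 held 8.27% of their summed FPKM with GDC-0994, against 25.7% with DMSO, RBL2 held 46.2% against 28.7%, and RB1 45.6% in both. The log2 ratio of RBL1 to RBL2 was -2.49 in KHM-5M GDC-0994, against -0.16 in KHM-5M DMSO, and -0.04 and -0.31 in TTA-1 with GDC-0994 and with DMSO.

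**Figure D3:**
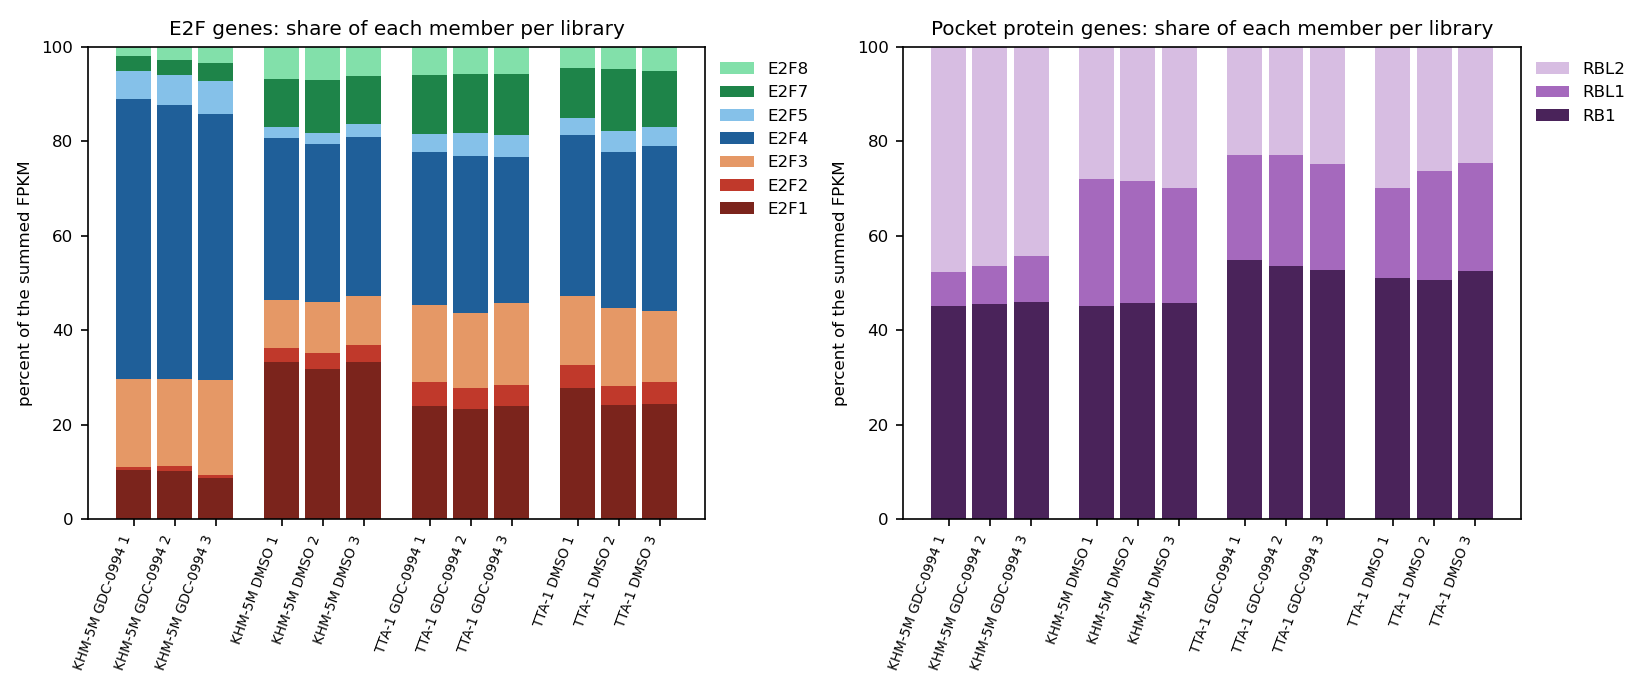
Share of each E2F gene in the summed FPKM of the 7 E2Fs, and of each pocket protein gene in the summed FPKM of the 3, in percent (y axis), for each of the 12 libraries (x axis). The 3 KHM-5M GDC-0994 libraries stand apart, with activators at 29.6% on average and E2F4 at 57.9%, while in the other 9 E2F1 and E2F4 are the largest E2F parts.

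The order of the E2F levels followed the same groups. In KHM-5M GDC-0994 the means ran, from high to low, E2F4 (25.9 FPKM), E2F3 (8.52), E2F1 (4.33), E2F5 (2.85), E2F7 (1.53), E2F8 (1.19) and E2F2 (0.375), and the libraries of E2F7 and E2F8 overlapped. In KHM-5M DMSO E2F4 (40.8 FPKM) and E2F1 (39.5) overlapped at the top, E2F7 (12.7) and E2F3 (12.5) overlapped next, and E2F8 (8.01), E2F2 (3.96) and E2F5 (2.92) followed. In both TTA-1 groups the order was E2F4, E2F1, E2F3, E2F7, E2F8, E2F2 and E2F5. There E2F2 and E2F5 overlapped, and with DMSO E2F8 and E2F2 did too.

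The partners and regulators of the family were described next, from lists of genes chosen with earlier results of these data known. Of 12 DP partners and subunits of the DREAM and MuvB complexes, 9 fell, 1 rose and 2 were not called in KHM-5M, with a median of -0.87 log2. Of all genes tested, 49.8% were called there (24.6% higher and 25.1% lower). TFDP1, the main DP partner, had 35.3 ± 1.39 FPKM in KHM-5M GDC-0994, against 74.4 ± 2.67 FPKM in KHM-5M DMSO (-1.10 ± 0.07 log2, adjusted p = 8.7e-10 by edgeR). TFDP2, the other DP partner, rose (0.59 ± 0.08 log2). E2F6, a repressor that does not bind pocket proteins, fell by 0.53 on the log2 scale. MYBL2 and FOXM1, which join MuvB to activate mitotic genes, fell by 1.93 and 2.01 on the log2 scale. In TTA-1 edgeR called 0 of the 12, with 1 at an unadjusted p under 0.05, where 2818 of all 16218 genes tested were. DESeq2 called 0, limma 0 and the fit with the trend removed 1 (MYBL2), where that fit called 6.23% of all genes. The share of all genes tested called in TTA-1 was 3.43%, so 0 of 12 is close to it. Without TTA-1 DMSO replicate 2, FOXM1 was called in TTA-1 (-0.21 log2, adjusted p = 0.034 by edgeR).

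Of 16 genes for the kinases that act on pocket proteins, their cyclins, their inhibitors and CDC25A, 9 fell and 7 rose in KHM-5M. Of all genes tested, 25.1% were called lower and 24.6% higher there. The directions did not split by role. Inhibitor genes were also among those that fell, and a cyclin gene and a kinase gene were among those that rose. CCND1, which encodes cyclin D1, had 16.5 ± 1.21 FPKM in KHM-5M GDC-0994, against 108.2 ± 4.18 FPKM in KHM-5M DMSO (-2.74 ± 0.08 log2). CDC25A, a phosphatase that activates CDK2, fell by 3.01 on the log2 scale. CDKN2B, which encodes the CDK4 and CDK6 inhibitor p15, rose to 26.6 ± 0.775 FPKM in KHM-5M GDC-0994, against 4.13 ± 0.366 FPKM in KHM-5M DMSO (2.66 ± 0.09 log2). In TTA-1 CDKN2B was at 0.0648 FPKM with GDC-0994 (3 to 5 counts per library) and 0.0360 FPKM with DMSO (2 to 3 counts), and was not called. For CDKN2B the difference between the lines was not called in the edgeR fit used above. It was called under some alternatives, such as DESeq2's Wald test (1.85 log2, adjusted p = 0.0308).

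CCND1 and CDKN1A were the 2 genes of this list called in TTA-1, where 3.43% of all genes tested were called. CCND1 had 26.9 ± 1.57 FPKM in TTA-1 GDC-0994, against 43.8 ± 2.84 FPKM in TTA-1 DMSO (-0.70 ± 0.07 log2, adjusted p = 2.68e-05 by edgeR). CDKN1A, which encodes the CDK inhibitor p21, had 15.4 ± 1.22 FPKM in KHM-5M GDC-0994, against 7.43 ± 0.252 FPKM in KHM-5M DMSO. In TTA-1 it had 2.33 ± 0.282 FPKM with GDC-0994, against 5.02 ± 0.319 FPKM with DMSO. It rose in KHM-5M (1.02 ± 0.10 log2) and fell in TTA-1 (-1.10 ± 0.12 log2), and the difference between the lines was 2.13 log2 (adjusted p = 1.81e-08 by edgeR).

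Of 35 tested genes known as G1/S targets of E2F (DNA replication and nucleotide synthesis), 35 fell in KHM-5M, with a median of -2.35 log2. Of all genes tested, 25.1% were called lower there. CDC6, which loads the replicative helicase, fell by 2.88 and MCM4, a subunit of that helicase, by 2.76 on the log2 scale. All 25 G2/M genes bound by the DREAM complex fell as well (median -2.10 log2), among them TPX2, a spindle assembly factor, by 2.21 and UBE2C, a ubiquitin-conjugating enzyme of mitotic exit, by 2.60. In TTA-1 edgeR called 0 of the 35 and 0 of the 25, with medians of 0.00 and 0.08 log2. The share of all genes tested called in TTA-1 was 3.43%, so both counts are close to it. At an unadjusted p under 0.05 there were 2 and 7, where 2818 of all 16218 genes tested were. DESeq2 called 0 and 1 (5.64% of all genes), limma 0 and 0, and the fit with the trend removed 0 and 2 (6.23% of all genes). The E2F words were in 20 of 32 windows of the G1/S genes (62.5%) and in 3 of 20 windows of the G2/M genes (15%), while TTTGAA, the core of the CHR element known from mitotic genes, was in 3.12% and 65% of the same windows. TTTGAA was in 2 of the 7 windows of the E2F and pocket protein genes (28.6%, E2F3 and RBL2), in 9.41% of those of protein-coding genes tested and in 15.2% of all windows.

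**Figure D4:**
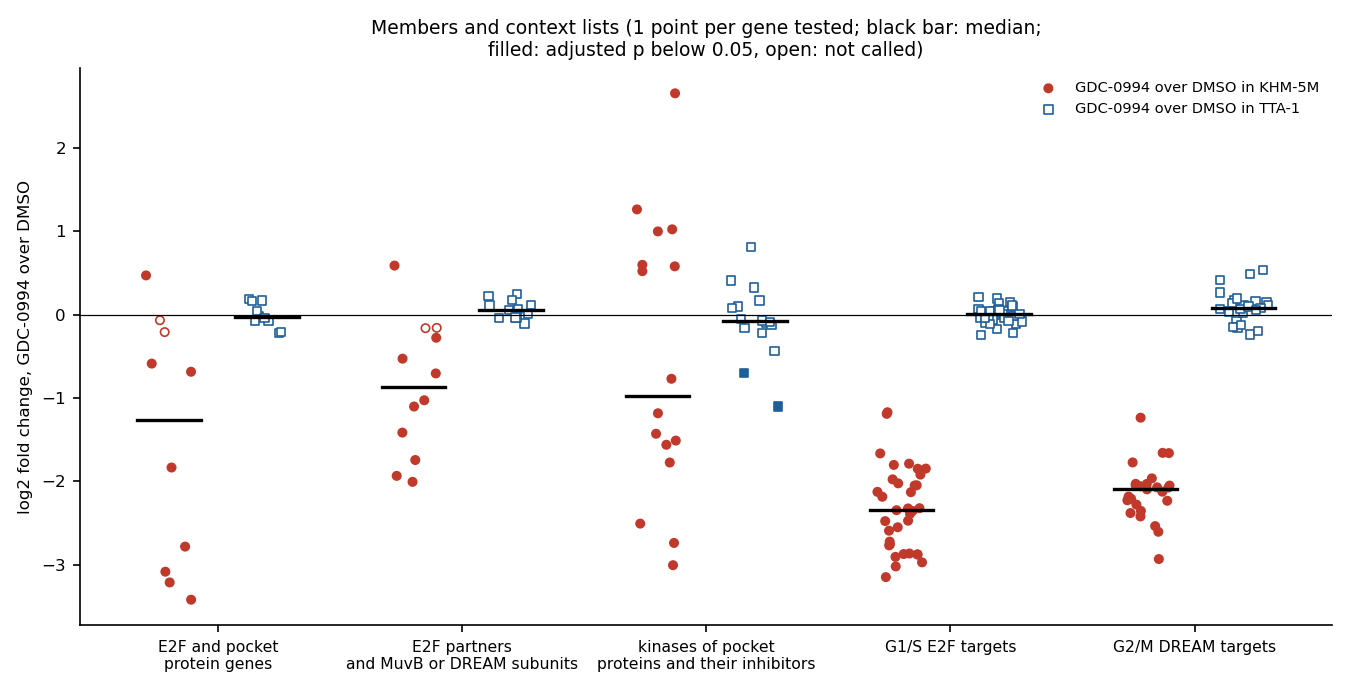
Log2 fold change of GDC-0994 over DMSO (y axis) of every tested gene of the E2F and pocket protein set and of the 4 lists around it (x axis), in KHM-5M and TTA-1, with filled points for genes called. The G1/S and G2/M genes lie below 0 throughout in KHM-5M, with medians of -2.35 and -2.10, and around 0 in TTA-1.

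Between the lines in DMSO, KHM-5M had 7 of the 10 transcripts higher and 1 lower than TTA-1, where 76.5% of all genes tested were called (39.6% higher and 36.8% lower), so the share called was close to that of all genes. The libraries of the lines did not overlap for 6 members with KHM-5M higher and 2 with KHM-5M lower, against 40.5% and 37.3% of all genes. E2F8 was 0.93 log2 higher (8.01 ± 0.754 FPKM in KHM-5M, 4.12 ± 0.317 FPKM in TTA-1), RBL1 0.69 (6.86 ± 0.574 and 4.19 ± 1.30 FPKM in the same order) and RBL2 0.56 (7.66 ± 0.110 and 5.10 ± 1.11 FPKM). The 3 calls closest to the threshold were E2F7 (0.25 log2), RB1 (0.28) and E2F5 (-0.28), with adjusted p from 0.0154 to 0.0464 by edgeR. E2F7 was not called with KHM-5M DMSO replicate 2 left out (adjusted p = 0.0682), nor with TTA-1 DMSO replicate 1 left out (0.0541). RB1 was not called without KHM-5M DMSO replicate 1 or 2, KHM-5M GDC-0994 replicate 2 or TTA-1 DMSO replicate 1 or 3 (0.0558 to 0.176), nor E2F5 without KHM-5M DMSO replicate 1 or 2 or TTA-1 DMSO replicate 2 or 3 (0.0525 to 0.0756). With all libraries kept, E2F5 was not called under upper quartile scaling (0.126), without a filter (0.215), in a fit of the compared groups alone (0.0562) or by limma on unfiltered log2(FPKM + 1) (0.0548), and stood at 0.15 log2 with the trend removed. RB1 was not called in the fit of the compared groups alone (0.0642) or by the same limma test (0.0904), and was called at 0.77 log2 with the trend removed (adjusted p = 1.54e-10 by edgeR). E2F2 (-0.04 log2, 95% interval -0.29 to 0.21) and E2F3 (-0.14 log2, 95% interval -0.30 to 0.02) were not called.

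E2F1 and E2F4 were also higher in KHM-5M DMSO than in TTA-1 DMSO, at 0.80 log2 (39.5 ± 1.52 and 22.4 ± 2.01 FPKM in this order) and 0.42 log2 (40.8 ± 1.65 and 30.0 ± 1.08 FPKM). Neither direction held with the GC and length trend removed, where E2F1 stood at -0.015 log2 (adjusted p = 0.854) and E2F4 at -0.34 (adjusted p = 4.71e-05 by edgeR). The trend is taken against the mean of all libraries. Its removal would therefore also remove a true line difference that follows GC content or length, and the 2 were not told apart. In that fit 5 of the 10 genes were called higher and 2, E2F4 and E2F2 (-0.75), lower. Of all genes tested, 78.3% were called in the same fit, 5586 higher and 7115 lower.

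With GDC-0994, KHM-5M had 7 of the 10 transcripts lower and 1 higher than TTA-1, where 80.1% of all genes tested were called (41.0% higher and 39.1% lower). The libraries did not overlap for 7 members with KHM-5M lower and 1 with KHM-5M higher, against 40.2% and 41.8% of all genes. E2F2 stood at -3.39 log2 (0.375 ± 0.0743 FPKM in KHM-5M, 3.81 ± 0.320 FPKM in TTA-1), E2F7 at -2.80 and E2F1 at -2.19, while limma on log2(FPKM + 1) gave -1.80, -2.15 and -1.92 for these genes. E2F8 (-2.04), RBL1 (-1.31), E2F3 (-0.71) and E2F5 (-0.39) were lower too. RBL2 was 1.11 log2 higher in KHM-5M GDC-0994 than in TTA-1 GDC-0994 (adjusted p = 1.64e-07 by edgeR), and all its treated KHM-5M libraries, from 9.78 FPKM up, lay above all treated TTA-1 libraries, up to 5.13 FPKM. E2F4 (-0.06 log2, adjusted p = 0.472) and RB1 (-0.10 log2, adjusted p = 0.481) were not called, but with the trend removed E2F4 was called lower (-0.78) and RB1 higher (0.42). E2F5 was not called under upper quartile scaling (adjusted p = 0.0513) or without a filter (adjusted p = 0.0594), and stood at 0.11 log2 with the trend removed.

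The genes whose level across the 12 libraries was most like that of E2F1, by Pearson correlation of log2(CPM + 1) over 10428 protein-coding genes, were SEC14L1 (r = 0.9963), UBE2S (0.9953) and CDC45 (0.9953). UBE2S, a ubiquitin-conjugating enzyme of mitotic exit, had 31.8 ± 3.29 FPKM in KHM-5M GDC-0994, 106.3 ± 1.81 in KHM-5M DMSO, 71.9 ± 4.81 in TTA-1 GDC-0994 and 74.3 ± 7.22 in TTA-1 DMSO. For RBL2 they were PARP8 (0.989), PIGN (0.9887) and ZNF217 (0.9877). ZNF217, a zinc finger protein, had 22.2 ± 1.72 FPKM in KHM-5M GDC-0994, 17.4 ± 0.236 in KHM-5M DMSO, 12.5 ± 0.709 in TTA-1 GDC-0994 and 12.4 ± 1.17 in TTA-1 DMSO. The 12 libraries fall into 4 groups that share line and treatment, so these coefficients describe group levels more than independent samples.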

How the data were processed

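RNA-seq of 12 libraries (4 groups of 3) was analysed from the deposited tables. Per the labels, libraries came from poly-T selected RNA primed with random hexamers, and no step of the protocol keeps the strand. Per the submitters' processing notes, CASAVA, HISAT2 2.0.5, featureCounts 1.5.0-p3 and GRCh38 were used, with no role or order given. The deposited gene table holds a raw count per gene and library. The deposited FPKM values were made by the authors; tested on the values, each equalled the count divided by gene length and by 1 library size, 0.975 to 1.08 times the library's total. In KHM-5M GDC-0994, 1 description is repeated over the 3 samples, and columns were matched by the replicate number in the titles. Nothing in the labels says that replicates are separate cultures, so p-values measure the spread between these samples, which may be technical; no replicate pair agreed within sampling noise (chi-square per degree of freedom 2.35 to 34.6).

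Counts were fitted with edgeR 4.0.16 in R 4.3.3 (filterByExpr with minimum count 10 and minimum total 15, TMM scaling, glmQLFit and glmQLFTest, 1 mean per group over 12 libraries, 8 residual degrees of freedom), with p-values adjusted by Benjamini-Hochberg over 16218 genes and a threshold of 0.05. All 10 members passed the filter. CPM was computed from the counts and the TMM scaling. Alternatives were the Wald test and the size factors of DESeq2 1.42.0, upper quartile scaling, no filter, a stricter filter (a mean count of 50, and 1 CPM in 3 libraries), fits restricted to the compared groups, the replicate number as a block, limma 3.58.1 on log2(FPKM + 1), filtered at an FPKM of 1 or unfiltered, and on log2(FPKM + 0.1), removal of each library's trend on gene length and GC content, and leaving out each library. Each trend was fitted to a library's deviation from the mean of all 12 libraries. It can therefore also take up true differences between groups that follow GC content or length. Shares used FPKM. Counts divided by length gave the same shares by construction, since each FPKM is that value divided by 1 library size. The fits were tested on simulated data. The text names all 10 members, TFDP1, TFDP2 and E2F6, up to 2 risen and 2 fallen genes of smallest p per list in KHM-5M, and the 3 genes most correlated with E2F1 and with RBL2 among protein-coding genes of at least 5 CPM on average. Members and lists were chosen with earlier results of these data known. Promoters were taken from RefSeq on GRCh38.p14 by symbol, and GC content and exon overlaps from GENCODE. Some genes of the lists are not reported here.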

Additional observations from a re-analysis of the deposited data

Results flagged for a closer look

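The effect of GDC-0994 differed between the lines for 8 of the 10 genes. The difference itself was tested (edgeR's quasi-likelihood test of KHM-5M minus TTA-1, adjusted over all genes tested). Of all genes tested, 27.9% were called (12.3% higher and 15.6% lower). The difference in log2 fold change was -2.99 for E2F1 (adjusted p = 1.14e-10), -3.35 for E2F2 (1.39e-09), -0.57 for E2F3 (0.000742) and -0.48 for E2F4 (0.00316). It was -3.05 for E2F7 (6.69e-11), -2.97 for E2F8 (2.91e-09), -1.997 for RBL1 (2.23e-05) and 0.55 for RBL2 (0.0205). The RBL2 difference was not called without KHM-5M GDC-0994 replicate 2 (adjusted p = 0.0553 by edgeR). Nor was it called by limma on unfiltered log2(FPKM + 1) (adjusted p = 0.0595). Each line stands for 1 genotype and 1 medium, which cannot be told apart here.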

How the results depend on the processing

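The alternatives include, for each member result, 12 fits that leave out 1 library. Where that library is outside the groups compared, the log2 value can hardly change. Of 1140 values of the 50 member results under the alternatives, 1083 kept their direction and their side of the threshold, 21 lost and 9 gained a call with the direction kept, and 27 changed sign. In 22 of the 27 neither value was called, and the alternative value lay between -0.042 and 0.099 log2. The other 5 came with the length and GC trend removed: KHM-5M over TTA-1 in DMSO for E2F1 (-0.015), E2F4 (-0.34) and E2F5 (0.15), and in GDC-0994 for E2F5 (0.11) and RB1 (0.42). In the DMSO comparison this setting also reversed FOXM1 (-0.49), MYBL2 (-0.41), CDKN1A (-0.16), MCM4 (-0.25), SEC14L1 (-0.22) and UBE2S (-0.19), and called E2F2 (-0.75); it shifted the median of all genes to -0.14, and upper quartile scaling to 0.13 in DMSO and 0.20 in GDC-0994. The cause was not tested. Sign changes with no call in either fit follow, as log2 values. With the trend removed in TTA-1 they were E2F1 (0.002), E2F2 (0.035), E2F5 (-0.042), FOXM1 (0.046), TFDP1 (0.028), UBE2S (0.101), CDC45 (0.047), PARP8 (-0.068), PIGN (-0.13) and ZNF217 (-0.034). Under upper quartile scaling they were E2F5 in KHM-5M (0.002), E2F2 between lines in DMSO (0.055), and E2F4 (0.099) and RB1 (0.063) in GDC-0994; without a filter they were E2F2 in DMSO (0.028), E2F4 (0.039) and RB1 (0.007) in GDC-0994, and ZNF217 in TTA-1 (-0.005). With 1 library left out, values in TTA-1 ranged from -0.176 to 0.004 for E2F2, -0.062 to 0.006 for E2F3, -0.036 to 0.112 for E2F5, -0.106 to 0.009 for E2F7, -0.033 to 0.399 for RBL1, -0.19 to 0.089 for RBL2, -0.214 to 0.055 for FOXM1, -0.102 to 0.185 for MYBL2, -0.076 to 0.012 for TFDP1, -0.114 to 0.03 for UBE2S, -0.065 to 0.011 for CDC45, -0.04 to 0.126 for PARP8, -0.068 to 0.165 for PIGN and -0.044 to 0.068 for ZNF217. The difference between lines for E2F5 ranged from -0.151 to 0.005. Between lines the ranges were -0.138 to 0.051 for E2F2, -0.094 to 0.183 for FOXM1 and -0.003 to 0.047 for MCM4 in DMSO, and -0.137 to 0.037 for E2F4 and -0.129 to 0.007 for RB1 in GDC-0994. The count of genes called in TTA-1, 556, was 915 with DESeq2's Wald test, 1206 without a filter, 206 with only the TTA-1 libraries, 341 with limma on log2(FPKM + 1) without a filter, 1011 with the trend removed, and 259 to 2620 with 1 library left out: 2620 without TTA-1 DMSO replicate 2, 349 without DMSO replicate 1, 311 without DMSO replicate 3 or GDC-0994 replicate 2, and 259 without GDC-0994 replicate 3. Leaving out 1 library gave 0 to 3 members called in TTA-1, and 5 to 8 for KHM-5M over TTA-1 in DMSO, the lowest without KHM-5M DMSO replicate 2 (E2F5, E2F7 and RB1 lost). In KHM-5M 8 members were called whichever library was left out. The RBL2 difference between lines was also lost with limma on log2(FPKM + 1) without a filter (adjusted p = 0.0595). Same-numbered libraries did not deviate together (correlations -0.112 to 0.022 in KHM-5M and -0.112 to 0.256 in TTA-1), so the numbers were not taken to pair them; with a replicate block 7849 genes were called in KHM-5M, 529 in TTA-1 and 4225 for the difference, 12341 between lines in DMSO and 12936 in GDC-0994, and no member's call changed. E2F2 in KHM-5M GDC-0994, at 27 to 44 counts, is the member most limited by depth.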
